A study of Mus musculus with 3 samples.

Results

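The 10 genes described here mark neurons: Snap25, Syt1, Rbfox3, Gad1, Gad2, Slc17a7, Slc32a1, Camk2a, Nefl and Stmn2. They were listed by name as neuron markers and were followed in RNA from a preparation of mouse brain vessels. All 10 were found among the 29787 genes matched in the count tables, and all 10 were among the 16604 genes with a level of 1 or more CPM (counts scaled to library size) in at least 1 library.

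RNA was sequenced in 3 libraries, 1 for each group, and every sample was labelled as brain vessel. The first group carried hGFAP-Cre and floxed Cx43 (Gja1, the gene of connexin 43) on a mixed C57BL6-BALB/c background, was labelled Cx43 -/-, and is called Cx43-deleted here. The controls were WT C57BL6-BALB/c and WT C57BL6 mice, and the study's design states an age of 3 months where it sets the Cx43-deleted mice against both WT backgrounds. The labels do not say whether a library came from 1 animal or from a pool, or how the vessels were isolated. The human GFAP promoter that drives this Cre is also active in radial glia, the progenitors of many forebrain neurons, so the deletion need not stop at astrocytes.

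Depth was 54975610 reads in the Cx43-deleted library but 24830975 in WT C57BL6 and 21170766 in its mixed-background counterpart. Gja1 had 2574, 4276 and 5138 reads in these libraries, 4.20-fold (4.0 to 4.41) lower in the Cx43-deleted library than in WT C57BL6-BALB/c and 4.21-fold (4.02 to 4.42) lower than in WT C57BL6. With 1 library per group there are no replicates and no test, and every difference given here is between libraries. Read numbers and folds are those of a gene's most abundant transcript, and the range in parentheses after a fold is its exact binomial 95% interval, which covers counting error only. Levels of different genes are compared as reads of that transcript per kilobase, scaled to library size (RPKM). Log2 ratios are of counts summed over a gene's transcripts, with a pseudocount of 0.5. Where 3 values follow each other, the Cx43-deleted library comes first, WT C57BL6-BALB/c second and WT C57BL6 last.

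Neurons pass signals by releasing transmitter from vesicles. Excitatory neurons fill these vesicles with glutamate through Slc17a7, and inhibitory neurons make GABA with Gad1 and Gad2 and load it through Slc32a1. Brain microvessels are wrapped by astrocyte endfeet and lie among neuronal processes, and dendrites and axon terminals hold messenger RNA of their own, so a preparation of vessels can bring neuronal RNA with it. In bulk RNA, fewer cells of a type and less RNA per cell cannot be told apart.

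Upstream sequence is shown for the pair of GABA-synthesising enzymes, whose ratio differed between the libraries, and for the glutamate transporter, the highest of the transmitter genes. The sequences are from RefSeq on GRCm38.p6, which held 6 of the 10 genes in its promoter table (Gad2, Gad1, Slc32a1, Slc17a7, Syt1 and Rbfox3). Each is the longest run, within the 250 bases before the RefSeq start, that no annotated exon covers, and all 3 are on the plus strand. In Gad2 (chr2:22622077-22622204) the capitals mark a core of the RE1 element, which binds the repressor REST, searched as AGCACC, any 2 bases and GGACAG, at -163 to -150 from the start. In Gad1 (chr2:70561879-70562041) they mark TATAAA, read on the other strand, at -141 to -136. In Slc17a7 (chr7:45163671-45163920) they mark GC boxes, the letters GGGCGG on either strand, the first at -70 to -65 and the last pair overlapping.
Gad2: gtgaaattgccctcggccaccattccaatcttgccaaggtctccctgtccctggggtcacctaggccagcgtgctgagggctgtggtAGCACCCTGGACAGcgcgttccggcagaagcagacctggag
Gad1: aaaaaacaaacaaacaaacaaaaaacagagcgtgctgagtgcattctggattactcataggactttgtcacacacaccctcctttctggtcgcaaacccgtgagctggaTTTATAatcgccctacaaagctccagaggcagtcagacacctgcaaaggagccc
Slc17a7: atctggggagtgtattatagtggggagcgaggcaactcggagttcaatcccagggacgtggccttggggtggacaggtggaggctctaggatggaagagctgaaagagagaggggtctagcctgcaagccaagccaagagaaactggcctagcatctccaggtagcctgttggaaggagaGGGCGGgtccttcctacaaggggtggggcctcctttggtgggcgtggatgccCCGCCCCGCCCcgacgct
The same letters were searched on both strands of all 32851 RefSeq windows of that length (250 bases before a start). The RE1 core was in 15 of them (0.0457%), TATAAA in 4063 (12.4%) and the GC box in 10756 (32.7%). Among the 6 matched genes the core was in Gad2 alone, TATAAA in Gad1 alone, and the GC box in Gad1, Slc17a7 and Syt1. These matches describe the letters and not the binding of a factor.

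Neuronal RNA was plentiful in all 3 vessel libraries. The summed reads of the most abundant transcripts of the 10 genes were 186447, 72612 and 68180, or 0.339%, 0.343% and 0.275% of the libraries. Their median level was 44.2, 47.0 and 41.7 RPKM, while the median over all measured genes was 9.16, 9.36 and 9.65. In each library 4 of the 10 stood among the 1000 genes with the highest RPKM: Snap25, Slc17a7, Camk2a and Syt1.

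In RPKM, Snap25 (282, 282 and 195) and Camk2a (278, 244 and 163) led. Slc17a7 came next with 207, 199 and 166, so that in WT C57BL6 it stood just above Camk2a, and Syt1 followed with 91.2, 111 and 116. These are the transcripts of vesicle release and of excitatory neurons. Rbfox3 (47.7, 47.4 and 33.0) and Stmn2 (40.8, 46.6 and 50.4) formed a middle pair whose order differed between the WT libraries. The inhibitory genes Gad1 (25.9, 28.1 and 23.2), Slc32a1 (14.0, 15.8 and 16.9) and Gad2 (11.8, 12.1 and 6.85) were lower, with Nefl (10.4, 17.0 and 16.4) among them. Without replicates no spread is known by which to say which neighbours in this order differ.

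**Figure D1:**
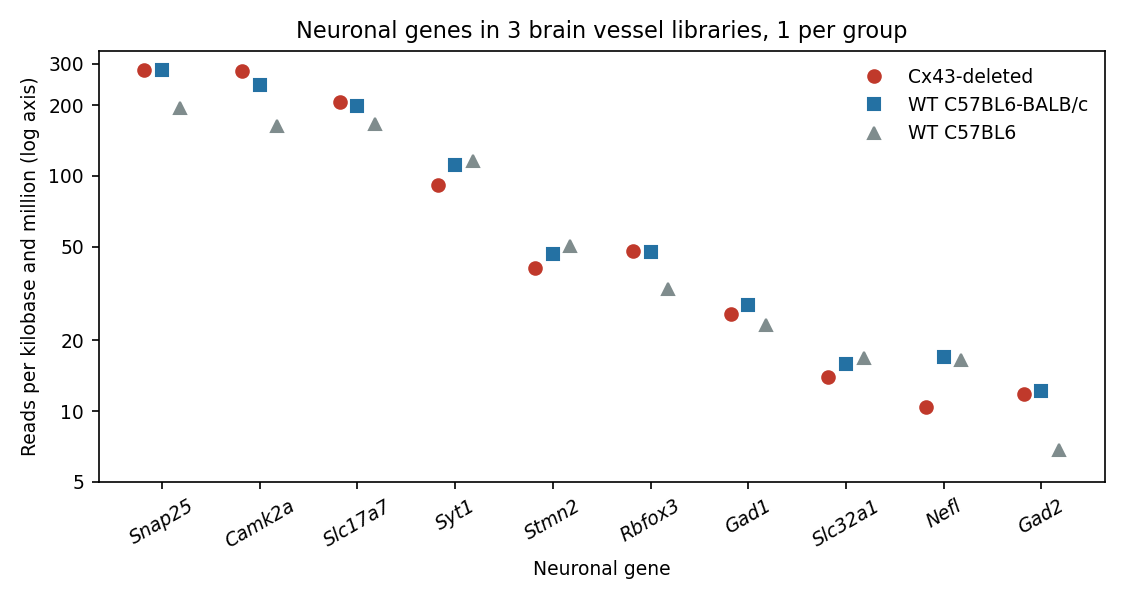
Level of each of the 10 neuronal genes in the 3 libraries, in RPKM of the most abundant transcript, on a log axis. Each point is 1 library. Snap25, Camk2a, Slc17a7 and Syt1 lie highest, and the points of Gad2, Camk2a and Snap25 for WT C57BL6 lie below the other two libraries.

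Snap25 encodes a SNARE protein of the nerve terminal that drives vesicle fusion (ENSMUSG00000027273.13; GRCm38 chromosome 2, 136713453 to 136782428). It had 32061, 12644 and 10464 reads. After scaling, the Cx43-deleted and WT C57BL6-BALB/c libraries were level and WT C57BL6 was the low one. The Cx43-deleted level was 1.00-fold that of WT C57BL6-BALB/c (0.982 to 1.02) and 1.45-fold (1.42 to 1.48) that of WT C57BL6.

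Syt1 encodes the calcium sensor that triggers release (ENSMUSG00000035864.14; chromosome 10, 108497650 to 109010982, minus strand). Its reads were 23573, 11375 and 14181. The WT libraries were close to each other and the Cx43-deleted library was the low one, so Syt1 ran against Snap25 although both proteins act in the same fusion step. The level was 1.22-fold (1.19 to 1.25) lower in the Cx43-deleted library than in WT C57BL6-BALB/c and 1.27-fold (1.24 to 1.30) lower than in WT C57BL6, and 1.04-fold (1.02 to 1.07) lower in WT C57BL6-BALB/c than in WT C57BL6. Snap25 over Syt1, in RPKM, was 3.10, 2.53 and 1.68.

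Rbfox3 encodes NeuN, a nuclear splicing factor used to stain neuronal cell bodies (ENSMUSG00000025576.17; chromosome 11, 118489762 to 118911597, minus strand). It had 7896, 3101 and 2582 reads. As for Snap25, the Cx43-deleted and WT C57BL6-BALB/c libraries were level, at 1.01-fold (0.965 to 1.05), and both stood above WT C57BL6. The folds over WT C57BL6 were 1.45 (1.39 to 1.51) for the Cx43-deleted library and 1.44 (1.37 to 1.52) for WT C57BL6-BALB/c.

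Slc17a7 encodes VGLUT1, which loads vesicles with glutamate in cortical and hippocampal excitatory neurons (ENSMUSG00000070570.5; chromosome 7, 45163949 to 45176142). Its reads were 32265, 12276 and 12298. The Cx43-deleted library was the highest and WT C57BL6 the lowest, with small steps. The Cx43-deleted level was 1.04-fold (1.02 to 1.06) that of WT C57BL6-BALB/c and 1.24-fold (1.22 to 1.27) that of WT C57BL6, and the WT C57BL6-BALB/c level was 1.20-fold (1.17 to 1.23) that of WT C57BL6.

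Camk2a encodes a subunit of a kinase that is abundant at excitatory synapses, and its messenger RNA is known to travel into dendrites (ENSMUSG00000024617.16; chromosome 18, plus strand). It had 74210, 25698 and 20624 reads. The Cx43-deleted library was again the highest and WT C57BL6 the lowest, with larger steps than for Slc17a7. The Cx43-deleted level was 1.14-fold (1.13 to 1.16) that of WT C57BL6-BALB/c and 1.70-fold (1.68 to 1.73) that of WT C57BL6. Between the WT libraries the fold was 1.49 (1.47 to 1.52), in favour of WT C57BL6-BALB/c. Camk2a over Syt1, in RPKM, was 3.05, 2.19 and 1.41, and Camk2a over Snap25 was 0.985, 0.865 and 0.839.

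Gad1 encodes GAD67, the form of the enzyme that is spread through the whole cell (ENSMUSG00000070880.10; chromosome 2, 70553072 to 70602014). Its reads were 4656, 2000 and 1975. The WT C57BL6-BALB/c library was the high one and WT C57BL6 the low one. The Cx43-deleted level was 1.09-fold (1.03 to 1.15) lower than in WT C57BL6-BALB/c and 1.12-fold (1.06 to 1.18) higher than in WT C57BL6, and the WT libraries differed by 1.21-fold (1.14 to 1.29).

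Gad2 encodes GAD65, the form that sits at nerve terminals (ENSMUSG00000026787.3; chromosome 2, 22622205 to 22693874). It had 3625, 1477 and 999 reads. WT C57BL6 was low and the other 2 libraries were nearly level, 1.03-fold apart (0.970 to 1.1), with the Cx43-deleted library the lower. The Cx43-deleted level was 1.72-fold (1.60 to 1.85) and the WT C57BL6-BALB/c level 1.77-fold (1.63 to 1.92) that of WT C57BL6. Gad1 over Gad2, in RPKM, was 2.20, 2.32 and 3.38.

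Slc32a1 encodes VGAT, which loads GABA and glycine into vesicles (ENSMUSG00000037771.11; chromosome 2, 158610767 to 158615748). Its reads were 2100, 940 and 1198. Unlike Gad1 and Gad2, it was highest in WT C57BL6 and lowest in the Cx43-deleted library. The level was 1.13-fold (1.05 to 1.22) lower in the Cx43-deleted library than in WT C57BL6-BALB/c and 1.20-fold (1.12 to 1.29) lower than in WT C57BL6, and the interval between the WT libraries included 1, with WT C57BL6-BALB/c 1.06-fold lower (0.976 to 1.16). An antisense transcript, Gm14205, overlaps 24.9% of its exon bases, and the library kit does not keep the strand, so the 2 genes can share reads. Gm14205 had 183, 74 and 87 reads. Slc17a7 over Slc32a1, excitatory over inhibitory vesicle transporter in RPKM, was 14.8, 12.6 and 9.87.

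Nefl encodes the light neurofilament chain, a structural protein of axons (ENSMUSG00000022055.7; chromosome 14, 68083863 to 68089095). It had 1884, 1215 and 1411 reads. The WT libraries were level, at 1.03-fold (0.955 to 1.11), and the Cx43-deleted library stood below both. The level there was 1.63-fold (1.52 to 1.75) lower than in WT C57BL6-BALB/c and 1.58-fold (1.47 to 1.70) lower than in WT C57BL6. No other of the 10 genes lay as far outside both WT libraries. A transcript of Nefm on the other strand overlaps 32.8% of the exon bases of Nefl, so these genes can share reads.

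The other neurofilament subunits were looked at after the values of Nefl had been seen. Nefm, the medium chain, had 2337, 1311 and 1463 reads and was 1.42-fold (1.33 to 1.52) and 1.32-fold (1.24 to 1.41) lower in the Cx43-deleted library than in WT C57BL6-BALB/c and WT C57BL6. Ina, which encodes the neurofilament partner alpha-internexin, had 1979, 1761 and 1168 reads and was 2.25-fold (2.11 to 2.40) and 1.25-fold (1.16 to 1.34) lower. Nefl, Nefm and Ina thus lay lowest in the Cx43-deleted library. Nefh, the heavy chain, with 1578, 779 and 602 reads, was 1.25-fold (1.14 to 1.36) lower than in WT C57BL6-BALB/c but 1.24-fold (1.13 to 1.37) higher than in WT C57BL6.

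Stmn2 encodes a stathmin that binds tubulin in growing axons (ENSMUSG00000027500.10; chromosome 3, 8509360 to 8561606). Its reads were 4177, 1886 and 2448. The order was the reverse of that of Camk2a, with WT C57BL6 highest and the Cx43-deleted library lowest. The level was 1.14-fold (1.08 to 1.21) lower in the Cx43-deleted library than in WT C57BL6-BALB/c and 1.24-fold (1.18 to 1.30) lower than in WT C57BL6, and 1.08-fold (1.02 to 1.15) lower in WT C57BL6-BALB/c than in WT C57BL6.

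**Figure D2:**
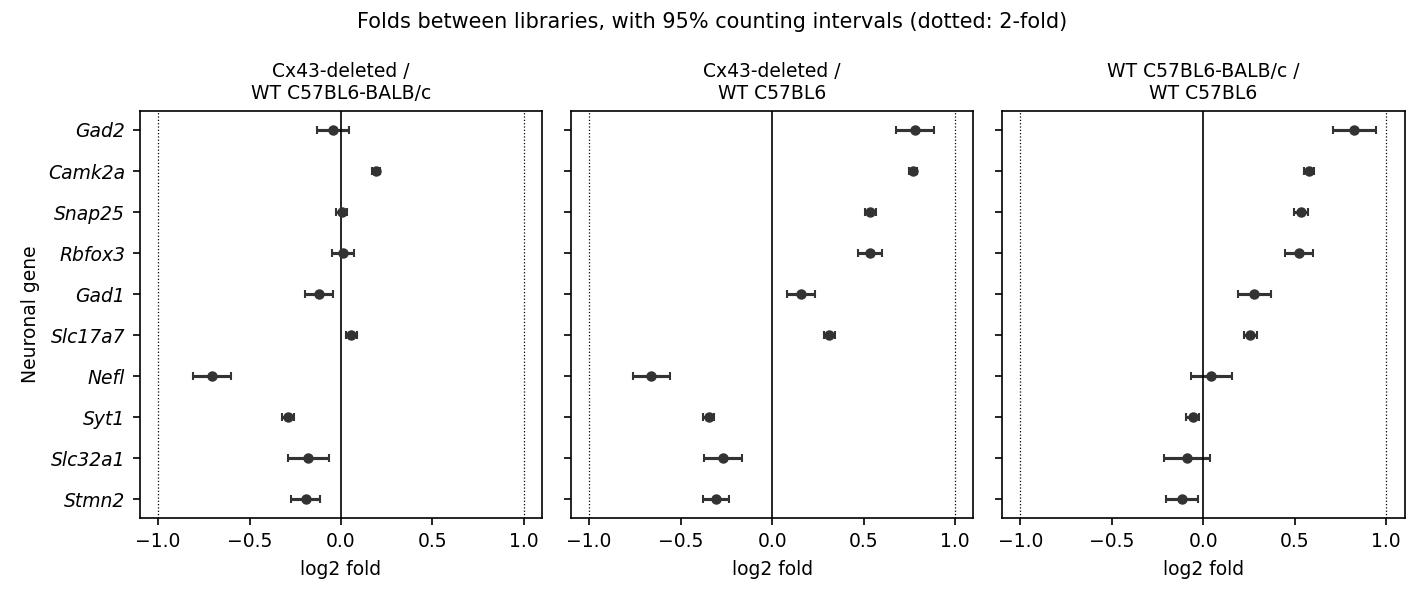
Ratio of each of the 10 neuronal genes between libraries, read on its most abundant transcript, on a log2 axis with 95% intervals that cover counting error only. The dotted lines mark 2-fold, which no point reaches. Nefl lies furthest below 0 in both comparisons of the Cx43-deleted library, and Camk2a and Gad2 lie furthest above 0 against WT C57BL6.

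The deletion is compared on its own background by the Cx43-deleted and WT C57BL6-BALB/c libraries. Of the 10 genes, 3 were higher in the Cx43-deleted library (Rbfox3, Slc17a7 and Camk2a), where 50.5% of all measured genes were, and 7 were lower, where 49.5% of all genes were. The median log2 ratio of the 10 was -0.10, between -0.70 for Nefl and 0.17 for Camk2a, and over all genes it was 0.00. The intervals of Snap25, Rbfox3 and Gad2 included a fold of 1. None of the 10 was 2-fold higher or lower, where 1.05% and 1.01% of all genes were. The signs of Snap25, Rbfox3 and Slc17a7 were not firm: the log2 ratio of Snap25 was -0.01 and became 0.04 with genes centred by GC content, that of Rbfox3 was 0.01 and became -0.05, and that of Slc17a7 was 0.06 and became -0.0008.

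Against WT C57BL6, 6 of the 10 were higher in the Cx43-deleted library (47.1% of all genes) and 4 were lower (52.9%). The higher genes were Camk2a (log2 0.87), Gad2 (0.78), Snap25 (0.60), Rbfox3 (0.58), Slc17a7 (0.31) and Gad1 (0.21). The lower ones were Nefl (-0.65), Syt1 (-0.33), Stmn2 (-0.31) and Slc32a1 (-0.27). The median of the 10 was 0.26 and that of all genes -0.03. No interval included 1, and none of the 10 passed 2-fold, which 1.54% of all genes did upward and 2.91% downward.

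The WT libraries differ in strain background. In WT C57BL6-BALB/c, 7 of the 10 genes were higher than in WT C57BL6 (46.7% of all genes) and 3 were lower (53.3%). The median was 0.31, between -0.11 for Stmn2 and 0.83 for Gad2, against -0.03 for all genes. The intervals of Slc32a1 and Nefl included 1, and none of the 10 was 2-fold apart, where 1.17% of all genes were higher and 2.09% lower by that much. These 3 comparisons share libraries, so they are not independent of each other: a low value in WT C57BL6 appears in both comparisons that hold it.

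Seen by library, on counts summed over transcripts, the order for the 10 genes cut across transmitter type. The WT C57BL6 library was the lowest for 6 of them (Snap25, Rbfox3, Gad1, Gad2, Slc17a7 and Camk2a), as it was for 37.5% of all measured genes. It was the highest for 3 (Syt1, Slc32a1 and Stmn2), as for 43.8% of all genes. The Cx43-deleted library was the highest for Rbfox3, Slc17a7 and Camk2a (3 of 10, all genes 33.2%) and the lowest for Syt1, Slc32a1, Nefl and Stmn2 (4 of 10, all genes 35.6%). The WT C57BL6-BALB/c library was the highest for Snap25, Gad1, Gad2 and Nefl (4 of 10, all genes 23.0%) and the lowest for none (all genes 26.8%). Several of these places are near ties. The counting intervals of Snap25, Rbfox3 and Gad2 between the Cx43-deleted and WT C57BL6-BALB/c libraries included 1. So did those of Nefl and Slc32a1 between the WT libraries. On its most abundant transcript Snap25 was highest in the Cx43-deleted library, at 1.00-fold WT C57BL6-BALB/c (0.982 to 1.02). The Cx43-deleted counts were near the shares of all genes.

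Other neuronal genes were counted in 10 further lists by role, 195 genes of which 187 were measured. Their median log2 ratio was -0.05 between the Cx43-deleted and WT C57BL6-BALB/c libraries, 0.20 between Cx43-deleted and WT C57BL6, and 0.25 between the WT libraries, beside 0.00, -0.03 and -0.03 over all genes. The WT C57BL6 library was the lowest for 106 of the 187 (56.7%, beside 37.5% of all genes) and the highest for 37 (all genes 43.8%). The Cx43-deleted library was the highest for 70 (all genes 33.2%) and the lowest for 61 (all genes 35.6%), shares near those of all genes.

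Pan-neuronal identity genes had a median of -0.07, 0.25 and 0.47 in the same 3 comparisons, and 18 of 22 were lowest in WT C57BL6 (all genes 37.5%). The list holds 2 long noncoding RNAs that were far more abundant than any of the 10 genes. Meg3 had 1225402, 421556 and 266919 reads, 2.23%, 1.99% and 1.07% of the libraries, and was 1.149-fold (1.145 to 1.153) higher in the Cx43-deleted library than in WT C57BL6-BALB/c and 2.17-fold (2.17 to 2.18) higher than in WT C57BL6. Snhg11 had 824100, 274270 and 190841 reads and was 1.19-fold (1.18 to 1.19) and 2.05-fold (2.03 to 2.06) higher. Both run the way of Camk2a. Ndrg4, a brain-enriched gene, followed with 376, 331 and 259 RPKM.

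In the list of vesicle and release genes, the partners of Snap25 and Syt1, 19 of 29 were lowest in WT C57BL6 (all genes 37.5%) and 5 were highest there (all genes 43.8%). The medians were -0.02, 0.30 and 0.34. Among the most abundant, Syp, a vesicle membrane protein (178, 193 and 220 RPKM, with 16.8% of its exon bases shared with another gene), and Vamp2, the SNARE of the vesicle (114, 103 and 133), were highest in WT C57BL6, against the count of the list.

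Glutamatergic genes other than Slc17a7 had medians of 0.01, 0.34 and 0.39. Of 22, 18 were lowest in WT C57BL6 (all genes 37.5%) and 0 were highest there (all genes 43.8%). The glutamate receptor subunits Gria2 (146, 132 and 99.7 RPKM), Grin1 (125, 118 and 76.8) and Gria1 (91.9, 81.0 and 76.2) each had the order of Camk2a. Genes of the postsynaptic density and of CaM kinases, the company of Camk2a, had medians of 0.05, 0.30 and 0.28. Of these, 15 of 20 were lowest in WT C57BL6 (all genes 37.5%). Camkv (213, 177 and 126 RPKM), a kinase-like protein, and Camk2b (168, 148 and 110), the partner subunit of Camk2a, again ran that way, whereas Nrgn, a calmodulin-binding protein of dendritic spines, ran the other way at 94.8, 104 and 116.

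Genes of GABAergic neurons had medians of -0.15, 0.04 and 0.19. Compared with WT C57BL6-BALB/c, 23 of 27 were lower in the Cx43-deleted library (all genes 49.5%) and 4 were higher (all genes 50.5%), and 12 were below both WT libraries (all genes 35.6%). Among the most abundant were the peptides Sst (116, 142 and 133 RPKM) and Cck (79.8, 86.6 and 103). Genes of striatal projection neurons had medians of -0.15, -0.20 and 0.16. Penk, the enkephalin precursor, stood at 89.0, 128 and 124 RPKM, Rgs9, a regulator of G-protein signalling, at 55.3, 43.6 and 39.1, and Ppp1r1b, which encodes DARPP-32, at 46.6, 40.3 and 55.9.

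The cytoskeletal list around Nefl and Stmn2 had medians of -0.17, 0.06 and 0.20, with 9 of 22 genes above both WT libraries (all genes 33.2%) and 9 below both (all genes 35.6%) in the Cx43-deleted library. Sptbn4, a spectrin of the axon initial segment (94.4, 78.0 and 44.0 RPKM), was highest in the Cx43-deleted library. Kif5a, an axonal motor (88.4, 111 and 110), was lowest there, as Nefl was. Stmn3, a relative of Stmn2, had 89.5, 78.7 and 89.4.

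Of the cerebellar genes, 9 of 10 were highest in WT C57BL6 (all genes 43.8%), and the medians were -0.03, -0.18 and -0.16. Gabra6 (6, 4 and 5 reads) and Cbln3 (48, 20 and 25) were listed but did not pass the filter. Some of the 9 were near ties, such as Cbln1 at 10.5, 10.7 and 10.8 CPM. Pcp2, at 14.0, 14.1 and 14.6 CPM, shares 51.5% of its exon bases with Pet100. Whether RNA of cerebellar neurons differed was not tested. The most abundant, Pcp4 (35.5, 38.6 and 54.3 RPKM), Itpr1 (25.4, 26.3 and 30.5) and Zic2 (26.6, 27.3 and 33.8), were all highest there. Hypothalamic peptide genes were low, with Trh at 5.63, 5.89 and 6.60, Cartpt at 6.53, 6.69 and 8.06 and Pmch, which shares 58.1% of its exon bases with Parpbp, at 6.45, 7.75 and 8.0 RPKM. Their medians were -0.03, -0.07 and 0.07.

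Of the monoamine and acetylcholine genes 9 of 13 were measured, and 7 of the 9 were highest in the Cx43-deleted library (all genes 33.2%). One of the 7, Dbh, reached 1 CPM in that library alone, so the filter fixed its place. The medians, Dbh included, were 0.51, 0.52 and -0.04. Dbh, the enzyme of noradrenaline synthesis, had 140, 0 and 4 reads, at least 18.4-fold higher in the Cx43-deleted library than in WT C57BL6-BALB/c, from a floor of 3 reads, and 16.6-fold (6.33 to 61.7) higher than in WT C57BL6. No other gene of the neuronal lists was 2-fold or more from both other libraries in the Cx43-deleted library. Of all genes, 0.428% were above both by that much and 0.379% below both. Ache, which breaks down acetylcholine, had 41.4, 33.8 and 19.7 RPKM, and Slc18a2, the vesicle transporter of monoamines, 5.88, 4.16 and 4.30. Ddc, a decarboxylase of dopamine and serotonin synthesis, was low in WT C57BL6-BALB/c, with 1058, 175 and 667 reads.

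The genes beyond 2-fold in a single comparison were singled out after their values were seen. Beside Dbh, Ddc and Slc6a4, the serotonin transporter (92, 10 and 29 reads), were 2-fold higher in the Cx43-deleted library than in WT C57BL6-BALB/c (3 of 187, all genes 1.05%), and Ina was the 1 gene 2-fold lower (all genes 1.01%). Compared with WT C57BL6, 8 of the 187 were 2-fold higher (all genes 1.54%), among them Meg3, Snhg11, Sptbn4 and the postsynaptic scaffold Shank1 at 2.41-fold (2.35 to 2.47), and 2 were lower (all genes 2.91%), among them Fat2, with 78, 34 and 84 reads. Between the WT libraries Tbr1, a factor of deep cortical layers, Shank1 and Lhx6, a factor of cortical interneurons, were 2-fold higher in WT C57BL6-BALB/c (3 of 187, all genes 1.17%), and Car8, Ddc and Slc6a4 were 2-fold lower (3 of 187, all genes 2.09%). Dbh, whose place the filter fixed, is in the 3 and in the 8 that were higher in the Cx43-deleted library. Such small counts are read as values of single genes and not of the lists.

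**Figure D3:**
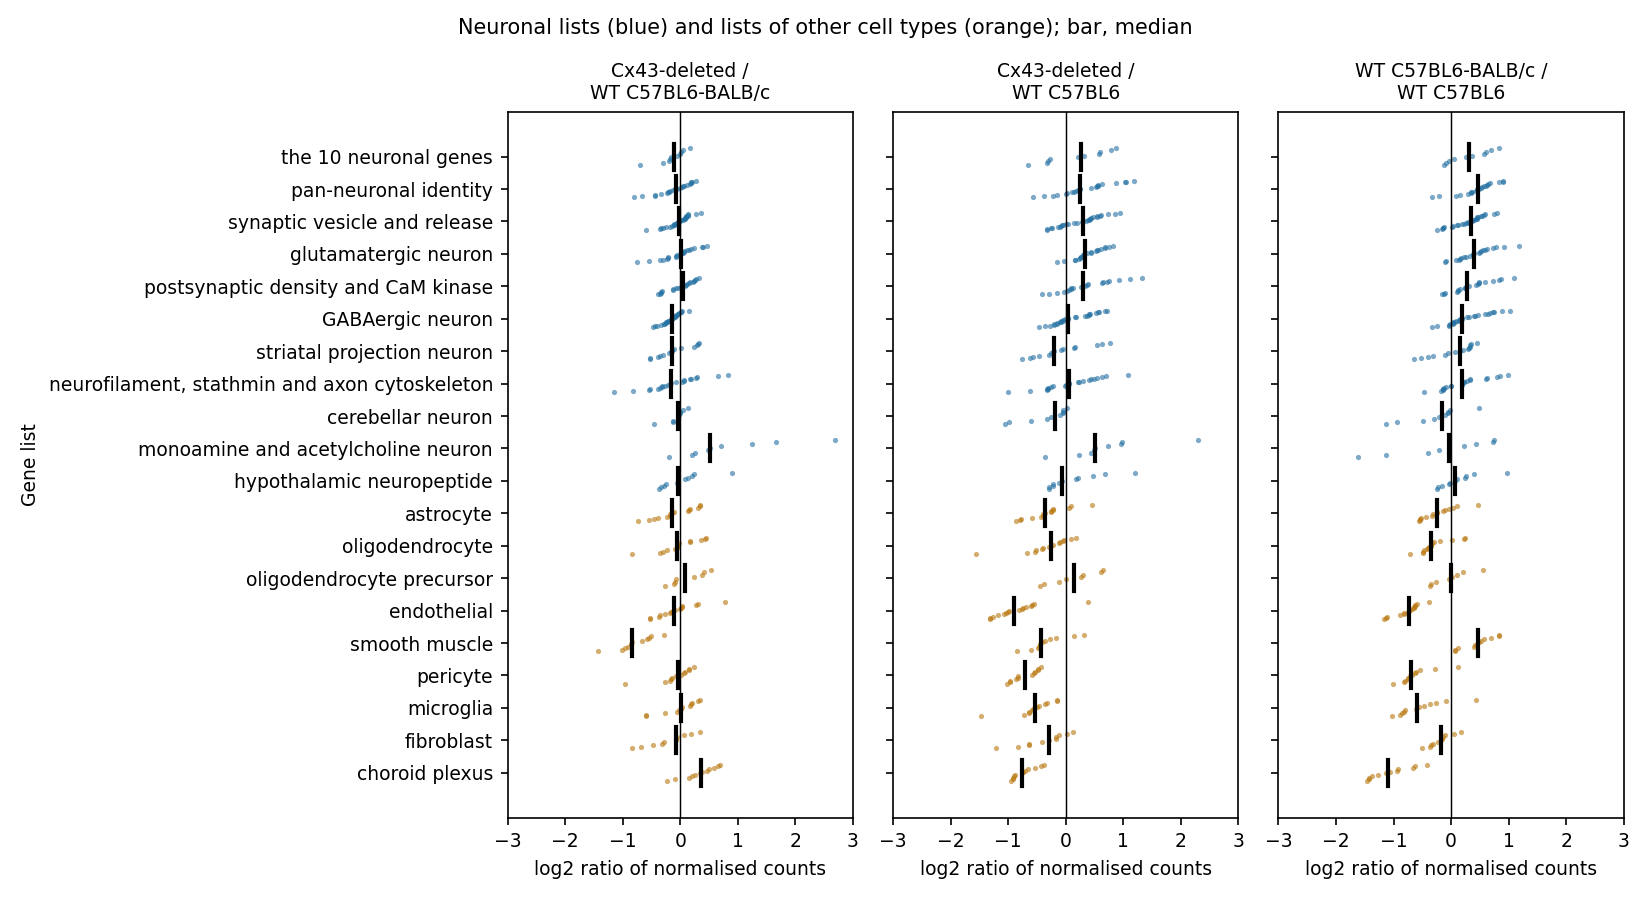
Log2 ratio of normalised counts for the measured genes of each list in the 3 comparisons between libraries. Each point is 1 gene, neuronal lists in blue and lists of other cell types in orange, and the black bar is the median of the list; the medians of the pan-neuronal, vesicle, glutamatergic and postsynaptic lists lie above 0 in both comparisons against WT C57BL6, and those of the endothelial, pericyte, microglia and choroid plexus lists lie below 0.

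Markers of the other cells of the preparation also differed between the libraries. All 16 endothelial genes were measured, and 15 were highest in WT C57BL6, as 43.8% of all genes were. Their summed level was 2134, 1887 and 3302 RPKM, and Cldn5, a tight junction protein of the blood-brain barrier, stood at 329, 374 and 823, while the glucose transporter Slc2a1 stood at 811, 482 and 645. The summed level of the 10 neuronal genes over that of the endothelial genes was 0.473, 0.531 and 0.238. WT C57BL6 was likewise the highest for 11 of 12 pericyte genes (summed 664, 663 and 1108 RPKM, led by Rgs5 and Vtn), 11 of 12 microglia genes (181, 169 and 269, led by C1qa and C1qb) and 12 of 12 choroid plexus genes (5725, 4242 and 11039, led by Ttr and Enpp2). No defining marker of these cell types was at 0. Their part in the neuronal values was not tested.

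Among glial lists, astrocyte genes had medians of -0.14, -0.36 and -0.25, with Glul at 142, 172 and 253 RPKM and Gfap at 77.3, 87.9 and 91.9, and 10 of 15 were highest in WT C57BL6 (all genes 43.8%). Oligodendrocyte genes had medians of -0.05, -0.26 and -0.36, with Mbp at 475, 493 and 631 RPKM, and 11 of 15 were highest in WT C57BL6. The list of oligodendrocyte precursors had medians of 0.08, 0.14 and -0.01, but its most abundant genes ran against them: Cspg5 had log2 ratios of -0.11, -0.38 and -0.27 and Pdgfra -0.08, -0.44 and -0.36. Smooth muscle genes separated the Cx43-deleted library instead, where 10 of 12 were below both WT libraries (all genes 35.6%). Their summed level was 1021, 1759 and 1360 RPKM, led by Acta2 at 316, 614 and 430 and Myl9 at 302, 445 and 423. Fibroblast genes, led by Fmod and Dcn, had medians of -0.07, -0.30 and -0.17. Fmod, the most abundant, ran against these medians, with log2 ratios of 0.07, 0.12 and 0.06, whereas Dcn had -0.68, -0.82 and -0.15.

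Of 14 pituitary genes listed 7 passed the filter, and 4 of these (Gh, Prl, Cga and Fshb) reached 1 CPM in WT C57BL6-BALB/c alone, so their levels are given with no count. Gh had 2, 933 and 7 reads, Prl 1, 684 and 0, Cga 19, 518 and 2, and Fshb 3, 140 and 0, while Pomc, which hypothalamic neurons also make, had 115, 197 and 131. The summed level of the list was 8.95, 152 and 15.2 RPKM. Endocrine cells of the pituitary also express genes of vesicle release, and the part of pituitary RNA in the neuronal values of that library was not tested.

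Genes that neurons and vessel cells switch on with activity or stress separated the Cx43-deleted library, where all 14 measured were below both WT libraries (all genes 35.6%). Their median log2 ratios were -1.58, -1.36 and 0.33. Fos had 904, 2778 and 2577 reads, Egr1 4534, 5201 and 6470, and Nr4a1 9220, 11348 and 11646, the Cx43-deleted library being more than 2-fold lower after scaling in each case. Fosb, Egr2, Egr3, Egr4, Junb and Ier2 were likewise 2-fold or more below both WT libraries. Npas4, a factor known from neurons, was high in WT C57BL6-BALB/c alone (23.5, 155 and 31.6 RPKM). Dusp1 (38.1, 52.2 and 121 RPKM) and Ier2 (15.4, 31.7 and 47.0) were highest in WT C57BL6. None of the 10 neuronal genes followed this list in size: the lowest, Nefl, had a log2 ratio of -0.70 and -0.65.

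Alternative transcripts were read next. One read can count for several transcripts of a gene, which are therefore not independent. Camk2a-201 held 50.3%, 51.1% and 43.3% of the reads of the most abundant Camk2a transcript, and Camk2a-202 24.2%, 25% and 19.6%. Snap25-202 held 28.3%, 28.6% and 22.8% and Rbfox3-201 43.1%, 43.6% and 37.7%. For each of these, the share was lowest in WT C57BL6, the library in which the gene itself was lowest. The shares of Gad1-205 (7.28%, 8.80% and 5.42%) and Syt1-206 (4.53%, 5.29% and 3.76%) were lowest there too, although Syt1 itself was highest there. Snap25-203, annotated as a retained intron, held 1.5%, 2.44% and 1.81%.

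Transcript coverage was close to complete. Stmn2 had 0 bases without a read in every library, and Camk2a 0, 0 and 38 of 4970 bases. Gad2, the gene with the lowest level in WT C57BL6, had 4.70%, 5.80% and 11.6% of its 5744 bases without a read, and Gad1 had 129, 283 and 341 of 3355. The shares were largest for the GABAergic genes. The Cx43-deleted library, the deepest, had the fewest or as few as any other library for each of the 10 genes except Nefl, which had 29, 43 and 27 of 3380 bases.

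**Figure D4:**
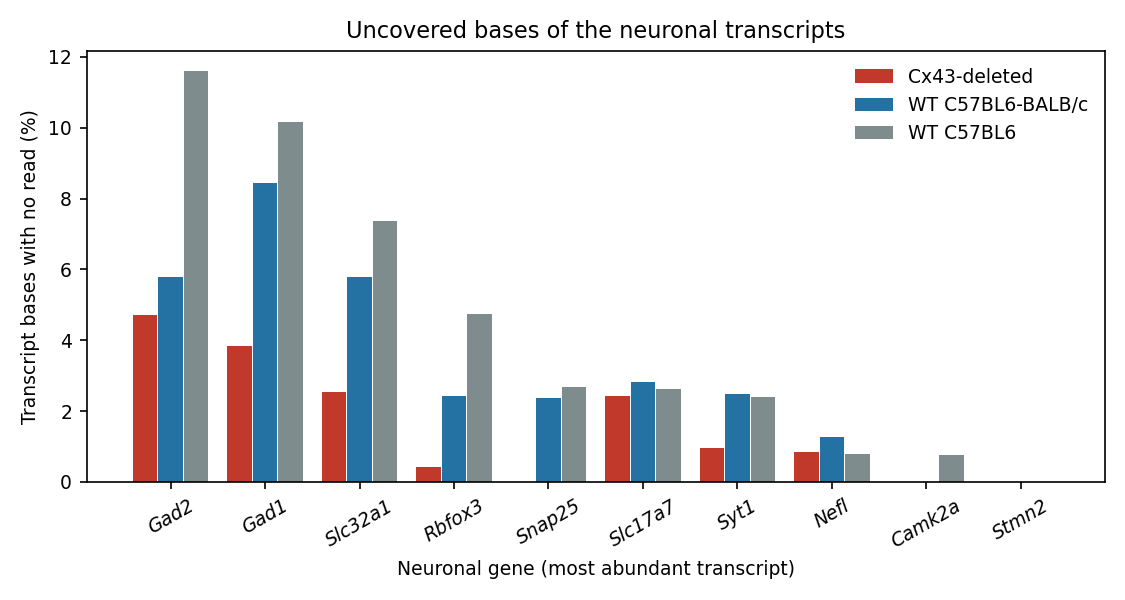
Share of the bases of the most abundant transcript that no read covered, in percent, for the 10 neuronal genes in the 3 libraries. Bars are single values without error. Gad2 and Gad1 have the largest shares, with Gad2 reaching 11.6% in WT C57BL6, and Stmn2 has none.

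The WT C57BL6 library also differed in where reads fell along transcripts. Over 1338 short transcripts contained in a longer one and centred in the 20% of it nearest the 5′ end, the median log2 share was 0.12 higher in WT C57BL6-BALB/c than in WT C57BL6, and over 249 in the 20% nearest the 3′ end it was 0.11 lower (-0.11). For the Cx43-deleted library against WT C57BL6 these values were 0.08 and -0.08. WT C57BL6 thus had relatively more reads near 3′ ends. Ratios against it also varied with transcript length, from a median of -0.20 between the WT libraries for transcripts near 1012.5 bases to 0.20 near 8506 bases. With genes centred by length, the log2 ratios between Cx43-deleted and WT C57BL6 were 0.81 for Camk2a, 0.69 for Snap25, 0.66 for Gad2, 0.59 for Rbfox3, 0.33 for Slc17a7 and 0.24 for Gad1. All 6 kept their sign there, as did Nefl (-0.62), Syt1 (-0.39), Stmn2 (-0.23) and Slc32a1 (-0.19). Whether RNA quality had a part in the differences was not tested.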

How the data were processed

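Poly-A RNA of brain vessels was sequenced in 3 libraries, 1 per group as labelled. The authors deposited, for each library, a whole-number read count per Ensembl transcript, not normalised, per the file headers. A further deposited column gives each count as a fraction of the library total, and count over fraction gave the totals. Transcript length and the number of bases with no read are also deposited. The submitters' processing notes name CASAVA 1.8.2, Bowtie and mm10 but no counting tool. The counts sum to 2.55, 2.53 and 2.45 times the totals, so reads are shared between transcripts and between overlapping genes.

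Identifiers were matched to GENCODE M21 (GRCm38): 69379 of 82813, of which 217 on another chromosome than in the tables were left out. The matched transcripts held 83.4%, 83.4% and 84.0% of the counts. The deposited coordinates reach 197054592 on chromosome 1, past the last gene of GRCm38 at 195323493, and were not used. Counts were summed per gene and divided by library size, scaled with TMM in edgeR 4.0.16 (R 4.3.3; factors 0.976, 1.00 and 1.02). A level of 1 CPM is 53.6, 21.2 and 25.4 counts. Folds have exact binomial intervals (scipy 1.17.1, Python 3.11.15). No test was possible, and a called gene is one past 2-fold or outside both other libraries. The steps were tested on simulated counts.

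The genes and lists were chosen with earlier results of these data known. Named were the 10 genes, in each neuronal list the 3 highest genes per kilobase and any gene 2-fold from both other libraries in the Cx43-deleted one, in lists of other cells the 2 highest, in the pituitary and activity lists also any gene 2-fold from both others in any library, and Gja1. A few genes that this rule names are not reported here. Motifs, and the alternatives that centre by GC content or length, were chosen after the data were seen. Other alternatives were the pseudocount, the scaling (with DESeq2 1.42.0), the filter, the most abundant transcript alone and the 217 transcripts kept.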

Additional observations from a re-analysis of the deposited data

How the results depend on the processing

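No paired analysis was possible because each group had 1 library. For the same reason no library could be left out. Among the 10 neuronal genes the comparisons against WT C57BL6 kept their sign under every alternative run. Between the Cx43-deleted and WT C57BL6-BALB/c libraries the log2 ratio of Rbfox3 went from 0.01 to -0.03 with library totals alone and to -0.05 with genes centred by GC content, that of Snap25 from -0.01 to 0.003 on the most abundant transcript and to 0.04 with GC centring, and that of Slc17a7 from 0.06 to -0.0008 with GC centring; the cause was not tested. Centring by transcript length shifted values by -0.144 to 0.119 and turned no sign. It brought that ratio of Rbfox3 to 0 by construction, because Rbfox3 was itself the median of the genes of like length. Counts over all genes rested on low levels. Genes 2-fold higher in WT C57BL6-BALB/c than in WT C57BL6 numbered 195, but 298 with a pseudocount of 0.1 and 120 at a level of 5 or more. Genes 2-fold higher in the Cx43-deleted library than in WT C57BL6-BALB/c numbered 175, but 113 at a level of 5 or more. Genes highest in WT C57BL6-BALB/c numbered 3823, but 5864 without a filter, as more genes are then counted. Low genes such as Dbh, Fat2 and the pituitary hormones rest on few reads, and variation between animals is unknown.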
